A study of Mus musculus with 16 samples.

Results

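The 40 genes described here drive cell division, and in brown fat of mice housed at 5 °C 26 of them were lower and 4 higher than in brown fat of mice kept at 30 °C, against a background in which 59.5% of all genes tested passed. In white fat none of the 40 passed the same test, where 0.0632% of all genes did. They were chosen by name, as the rows whose Ensembl identifier maps to the 40 gene symbols, and all 40 were found among the 46078 identifiers in the count table. The samples are brown adipose tissue (BAT), whose cells turn fuel into heat, and inguinal white adipose tissue (WAT), the fat store of the groin. All mice are labelled as wild-type C57BL/6 females aged 16 weeks, which 1 library described below goes against, and had been bred and weaned at 30 °C, a temperature at which a mouse spends little energy on warmth, with no food for 2 to 3 h before collection. At 10 to 12 weeks of age the mice of BAT_cold and WAT_cold were given 2 weeks at 18 °C, followed in turn by 3 weeks at 5 °C, whereas those of BAT and WAT stayed at 30 °C. Each of the 4 groups holds 4 libraries of poly(A)-selected RNA, and since no label ties a library to its own mouse, the p-values reflect differences among libraries, which may be technical.

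A dividing cell loads the MCM helicase onto its replication origins in G1 phase, copies its DNA in S phase and separates the copies in mitosis. Cyclins bound to cyclin-dependent kinases set the order of these steps, and most of the genes are transcribed in waves, E2F factors acting before S phase and FoxM1 with the MuvB complex before mitosis. In fat, precursor cells, blood vessel cells and immune cells can divide, while mature adipocytes are generally held not to. In mouse brown fat, precursor cells are known to divide in the first days of cold exposure. In a bulk sample fewer dividing cells and less RNA per dividing cell cannot be told apart.

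Depth was 54264023 to 71289020 counts per library. WAT_cold replicate 1 (WAT_cold_1) stood apart. It held 0.048 CPM (counts scaled to a common library size) of Xist, against at least 275 CPM in each of the other 15 libraries, and 123 CPM of the Y-linked gene Ddx3y, against 0.0247 CPM at most elsewhere, although it is labelled female. Its summed level of 10 mammary epithelium markers was 12.5 CPM, against 917 to 956 CPM in the other 3 WAT_cold libraries. Each test on WAT_cold is therefore given with and without it. In 4 of the 8 brown fat libraries, replicates 1 and 2 of BAT_cold and replicates 3 and 4 of BAT, the source label named the other temperature than the title and the housing label did; groups follow the title and housing label. Ucp1, the uncoupling protein that makes heat, was at 12388 to 13787 CPM in the libraries grouped as BAT_cold and at 634 to 2019 CPM in those grouped as BAT. Brown fat libraries carry a tissue label that reads inguinal. Their brown adipocyte markers summed to 17960 to 19570 CPM in BAT_cold and 2780 to 4927 CPM in BAT, against 74.5 to 768 CPM in WAT_cold and 13.6 to 33.8 CPM in WAT.

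Promoters of 34 of the 40 genes were matched in RefSeq (GRCm38.p6, 250 bases before to 50 after the start, 300 bases in all). Those missing from the table were Ccne2, Ccna2, Foxm1, Mcm4, Aurkb and Kif20a. 3 kinds of short sequence were searched on both strands: the CHR core (TTTGAA or TTTAAA), the CCAAT box, and an E2F-like site (TTTCCCGC, TTTCGCGC, TTTGCCGC or TTTGGCGC, matches that overlap each other being counted apart). In other systems the CHR is bound by the MuvB complex and the CCAAT box by NF-Y. A CCAAT box was present in 26 of the 34 promoters (76.5%), against 37.4% of all 32851 promoters in the table. The CHR core was present in 22 (64.7%, against 27.6%), and both together in 19 (55.9%, against 10.7%). An E2F-like site was present in 8 (23.5%, against 2.26%), those of Cdk2, Cdc6, Cdt1, Mcm3, Mcm5, Mcm6, Mcm7 and Cdk1. A match is a string of letters and not a measured binding site. 5 promoters are shown because they belong to genes that the results below turn on, with the matches in capitals. That of Mcm6, a helicase subunit, held 3 E2F-like sites of which 2 overlap and 2 CCAAT boxes. That of Cdk1, the kinase of mitotic entry, held all 3 kinds, with CHR cores 71 and 15 bases before the start. That of Ube2c, the ubiquitin-conjugating enzyme of the anaphase promoting complex, held 6 CCAAT boxes and 1 CHR core 29 bases before the start. The small and large subunits of ribonucleotide reductase, Rrm2 and Rrm1, differed: Rrm2 had 1 CCAAT box and a CHR core at its start, and Rrm1 had 2 CCAAT boxes and no CHR core.
Mcm6, chr1:128359656-128359955, minus strand: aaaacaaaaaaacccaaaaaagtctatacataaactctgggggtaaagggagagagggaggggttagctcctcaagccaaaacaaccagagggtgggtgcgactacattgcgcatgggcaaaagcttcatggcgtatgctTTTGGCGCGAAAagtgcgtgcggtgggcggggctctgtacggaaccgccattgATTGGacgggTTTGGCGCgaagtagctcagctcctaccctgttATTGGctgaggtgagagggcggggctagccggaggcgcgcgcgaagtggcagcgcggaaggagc
Cdk1, chr10:69352863-69353162, minus strand: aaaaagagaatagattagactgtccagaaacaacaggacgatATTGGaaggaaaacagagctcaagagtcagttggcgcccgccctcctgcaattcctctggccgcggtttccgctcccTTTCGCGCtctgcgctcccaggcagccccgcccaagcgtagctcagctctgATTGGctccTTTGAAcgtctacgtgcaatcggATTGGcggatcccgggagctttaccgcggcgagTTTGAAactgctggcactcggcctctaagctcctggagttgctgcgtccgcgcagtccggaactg
Ube2c, chr2:164769679-164769978, plus strand: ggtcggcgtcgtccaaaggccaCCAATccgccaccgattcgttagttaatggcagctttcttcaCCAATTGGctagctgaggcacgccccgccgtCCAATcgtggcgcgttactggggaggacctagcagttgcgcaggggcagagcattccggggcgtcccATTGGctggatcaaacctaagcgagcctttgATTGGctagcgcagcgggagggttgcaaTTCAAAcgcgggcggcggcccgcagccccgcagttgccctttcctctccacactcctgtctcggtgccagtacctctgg
Rrm2, chr12:24708004-24708303, plus strand: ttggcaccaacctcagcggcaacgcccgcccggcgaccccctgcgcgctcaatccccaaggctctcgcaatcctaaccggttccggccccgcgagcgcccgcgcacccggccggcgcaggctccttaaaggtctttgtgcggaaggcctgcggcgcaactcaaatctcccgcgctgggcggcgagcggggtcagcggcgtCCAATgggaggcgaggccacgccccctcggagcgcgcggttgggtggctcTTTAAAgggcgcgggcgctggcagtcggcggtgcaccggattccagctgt
Rrm1, chr7:102441445-102441744, plus strand: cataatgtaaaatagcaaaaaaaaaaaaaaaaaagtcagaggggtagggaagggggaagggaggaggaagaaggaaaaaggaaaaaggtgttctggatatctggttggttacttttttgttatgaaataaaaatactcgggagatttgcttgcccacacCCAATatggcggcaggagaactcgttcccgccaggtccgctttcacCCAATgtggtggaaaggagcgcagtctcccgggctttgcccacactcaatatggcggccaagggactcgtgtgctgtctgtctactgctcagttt

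All 40 transcripts were detected in every library, at levels that spanned a wide range. The sum over the 40 genes was 177 to 206 CPM in BAT_cold and 228 to 271 CPM in BAT, against 291 to 470 CPM in WAT_cold (390 to 470 CPM without WAT_cold_1) and 449 to 519 CPM in WAT. Every BAT_cold library lay below every BAT library, and WAT_cold_1 was the lowest of the 8 white fat libraries. For 25 of the 40 genes the group means ran from WAT at the top through WAT_cold and BAT to BAT_cold at the bottom, and for 4 more from WAT_cold through WAT and BAT to BAT_cold. Without WAT_cold_1 these counts were 19 and 10. Different genes were set side by side per kilobase of annotated exon, with all isoforms joined. Such a length (11012 bases for Rrm1, 2400 for Pcna) can exceed that of the transcript present, so ranks among genes are approximate. On this measure Pcna was highest in every group, with mean levels of 14.3 CPM per kb in BAT_cold and 20.6 in BAT. In WAT_cold it was at 19.0 (19.5 without WAT_cold_1) and in WAT at 21.9. It encodes the clamp that holds DNA polymerase on its template and also serves DNA repair. At the low end was Cenpe, a kinetochore motor, at 0.0273 CPM per kb in BAT_cold and 0.118 in BAT. With it were Cenpf, another kinetochore protein, at 0.0353 in BAT_cold and 0.0401 in BAT, and Bub1, a checkpoint kinase. Bub1 was at 0.0567 in BAT_cold and 0.0751 in BAT, below Cenpe in BAT. The 4 BAT_cold libraries together held 38 counts of Cenpe, 42 of Bub1 and 58 of Ccnb2, so single libraries give these genes little precision. Counts were also low for Plk1 (76), Aurkb (76), Birc5 (78), Cdk1 (84), Cdt1 (86) and Cenpf (90).

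**Figure D1:**
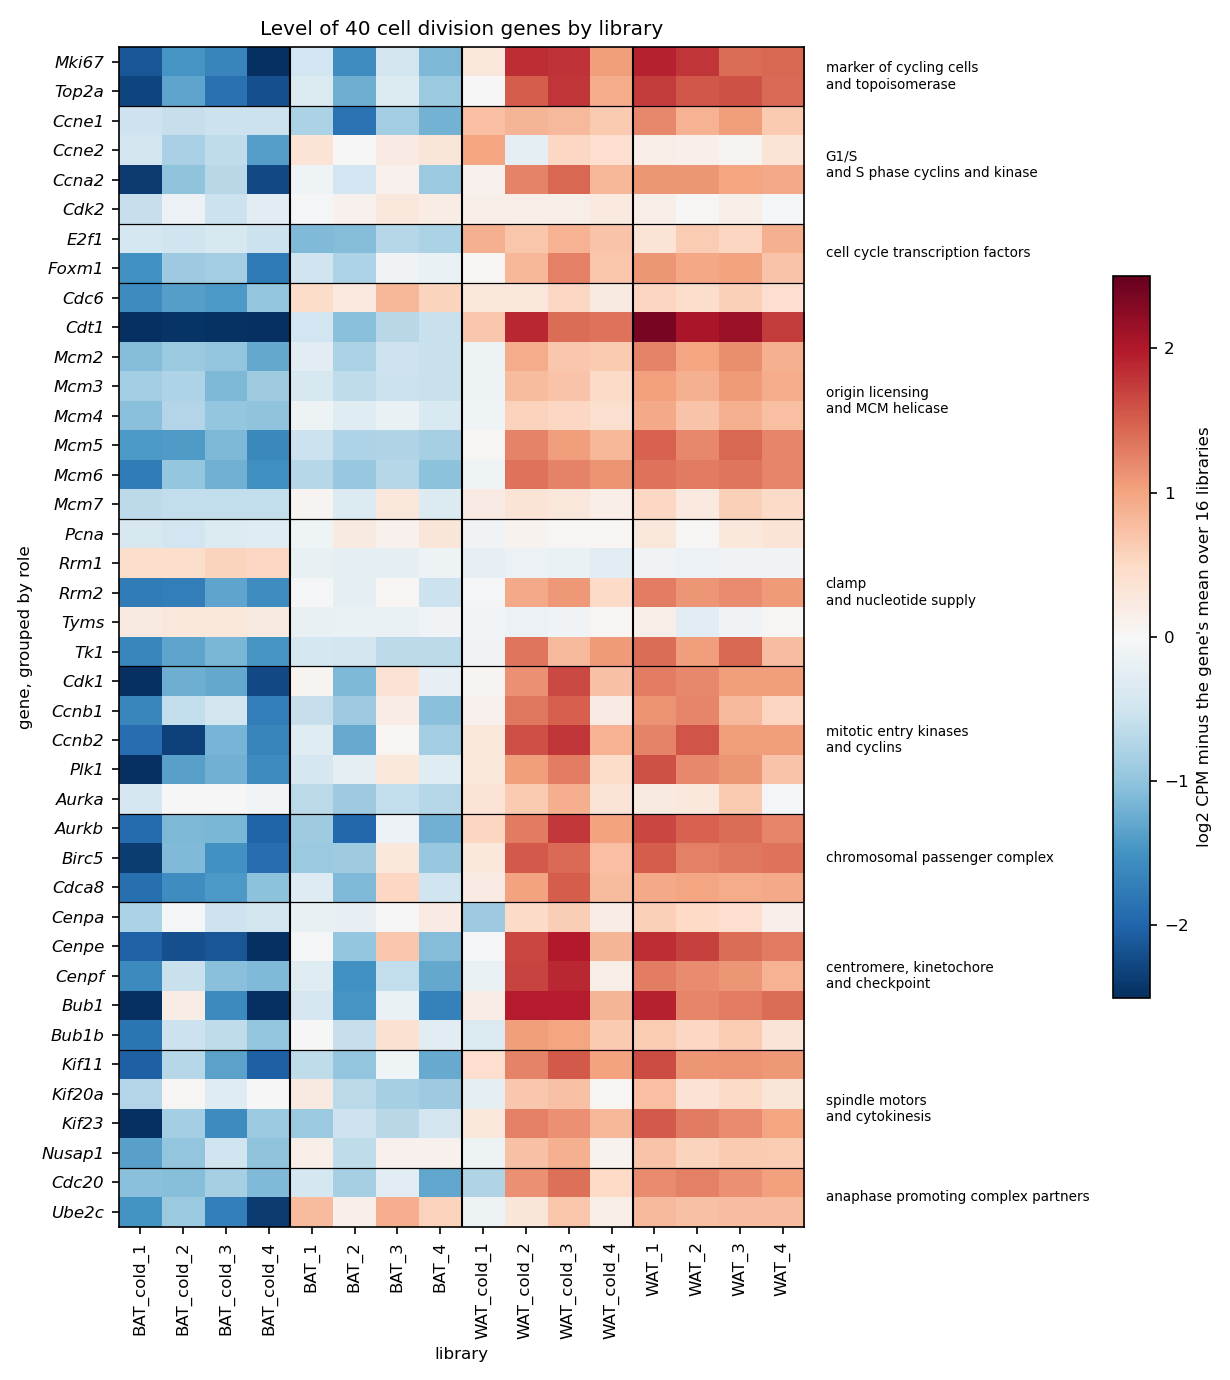
Log2 CPM of the 40 genes (rows, grouped by role) in the 16 libraries (columns, in the groups BAT_cold, BAT, WAT_cold and WAT), as the difference from each gene's mean over all libraries, with colours limited to -2.5 to 2.5. Most rows are lowest in BAT_cold and highest in the white fat groups, Rrm1 is highest in BAT_cold, and WAT_cold_1 is lower than the other white fat libraries in most rows.

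In brown fat of mice at 5 °C, 26 of the 40 genes were lower than at 30 °C, 4 were higher and 10 did not pass an adjusted p of 0.05. Of all genes tested in this comparison 59.5% were called, 29.2% as higher and 30.3% as lower, so 75% called among the 40 stands against a tissue in which most genes moved. The median log2 fold change, BAT_cold over BAT, was -0.69 over the 40 genes and -0.05 over all genes. Libraries of the groups did not overlap for 24 of the 40, 5 higher and 19 lower in BAT_cold. Of all 16213 genes tested, 55.2% showed such a separation, 4468 higher and 4474 lower. Scaled by library totals instead of TMM, 31 were called, 30 lower and 1 higher, the median of all genes being shifted to -0.43. The share of all genes called under that setting is not given here. Log2 fold changes for brown fat are BAT_cold over BAT, with the standard error after the ± sign.

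The standard marks of cycling cells were lower in the cold. Mki67, which coats mitotic chromosomes and marks any cell in cycle, was at 1.67, 2.67, 2.36 and 1.16 CPM in BAT_cold, against 5.29, 2.53, 5.36 and 3.39 CPM in BAT. The groups overlapped in one library each, the highest BAT_cold library lying just above BAT replicate 2, and the log2 fold change was -1.08 ± 0.31 (adjusted p = 0.0144). Without BAT replicate 3 the adjusted p was 0.0505. Top2a, the topoisomerase that untangles replicated chromosomes, was at 1.33, 2.65, 1.79 and 1.43 CPM in BAT_cold, against 5.11, 2.83, 5.16 and 3.43 CPM in BAT. Its groups did not overlap, and it was 2.29-fold lower (log2 -1.20 ± 0.28, adjusted p = 0.00427).

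Among the cyclins and the kinase of the G1/S step, 3 of 4 were lower. Cyclin E2 (Ccne2) was at 0.816 to 1.56 CPM in BAT_cold and 2.13 to 2.71 CPM in BAT, with no overlap, and fell by 1.0 ± 0.22 on the log2 scale (adjusted p = 0.00309). Cyclin A2 (Ccna2), which drives S phase, changed by -1.10 ± 0.40 (adjusted p = 0.0376), with 0.453 to 1.46 CPM in BAT_cold and 1.24 to 2.57 CPM in BAT. Cdk2, their kinase partner, changed by a smaller -0.51 ± 0.11 (adjusted p = 0.00271). Cyclin E1 (Ccne1) went the other way without passing the test: 2.58 to 2.72 CPM in BAT_cold against 1.07 to 2.23 CPM in BAT, no overlap, log2 0.58 ± 0.23, adjusted p = 0.0537. Ccne2 shares 17.4% of its exon bases with Ints8 on the opposite strand, and Ccna2 12.5% with Exosc9. Those neighbours changed by 0.16 and 0.07, and whether the counting used strand is not given in the sources used here.

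The transcription factors split. E2f1, an activator of S phase genes, was at 2.69 to 2.99 CPM in BAT_cold and 1.83 to 2.41 CPM in BAT, without overlap (log2 0.45 ± 0.16, adjusted p = 0.0331). Foxm1, an activator of mitotic genes, was at 0.766 to 1.41 CPM in BAT_cold and 1.52 to 2.43 CPM in BAT, also without overlap (-0.85 ± 0.26, adjusted p = 0.0173). The E2f1 call held in 2 of the 8 fits that left out a library, with a highest adjusted p of 0.0699, and under library totals its log2 value was 0.07 (adjusted p = 0.715).

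All 8 genes of origin licensing and the helicase were lower in BAT_cold. Cdc6 and Cdt1 are the loaders that place the MCM ring on origins. Cdc6 was at 0.622, 0.708, 0.683 and 0.939 CPM in BAT_cold, against 2.53, 2.18, 3.30 and 2.72 CPM in BAT, a 3.61-fold lower level (log2 -1.85 ± 0.22, adjusted p = 5.99e-05). Cdt1 was at 0.538, 0.616, 0.613 and 0.346 CPM in BAT_cold, against 2.43, 1.65, 2.11 and 2.30 CPM in BAT, a 4.0-fold lower level (log2 -2.0 ± 0.24, adjusted p = 7.55e-05). For both loaders the BAT_cold libraries lay well below every BAT library. The 6 ring subunits Mcm2 to Mcm7 moved less, with log2 fold changes of -0.69 (Mcm4) to -0.38 (Mcm3). Mcm4 was at 8.29, 10.2, 8.79 and 8.53 CPM in BAT_cold, against 15.7, 13.8, 15.3 and 13.0 CPM in BAT (adjusted p = 0.000217). Mcm6, with 4.70 to 8.15 CPM in BAT_cold and 7.83 to 9.74 CPM in BAT, was the one subunit whose libraries overlapped (-0.49, adjusted p = 0.0292), and its call held in 3 of 8 fits that left out a library. Although the 6 proteins form one ring, their transcripts differed per kilobase. Means ran from 0.702 CPM per kb for Mcm2 to 3.53 for Mcm7 in BAT_cold, and from 1.02 to 5.24 in BAT. The low place of Mcm2 depends on its joined exon length of 6956 bases, against 3993 for Mcm5. By CPM Mcm2 averaged 4.88 in BAT_cold and 7.11 in BAT, above Mcm5 at 3.28 and 5.20. Of the 50-base exon windows of Mcm7, 18.1% also occur in transcripts of other genes, the pseudogene Gm5487 sharing the most. Mcm7 also shares 7.25% of its exon bases with Ap4m1 and 1.45% with Cops6, both on the opposite strand. Its level is therefore less certain.

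Genes of the replication clamp and of nucleotide supply did not move together. Ribonucleotide reductase makes deoxynucleotides from a large subunit, Rrm1, and a small subunit, Rrm2, that is made mainly in S phase. Rrm1 was at 38.7, 39.0, 42.3 and 41.1 CPM in BAT_cold, against 25.1, 24.5, 24.3 and 26.2 CPM in BAT. Rrm2 was at 1.02, 1.03, 1.37 and 1.16 CPM in BAT_cold, against 3.34, 2.90, 3.54 and 2.35 CPM in BAT. Neither gene's groups overlapped, and they changed in opposite directions: Rrm1 was 1.61-fold higher (log2 0.69 ± 0.06, adjusted p = 5.57e-06) and Rrm2 2.65-fold lower (log2 -1.40 ± 0.20, adjusted p = 0.000193). The ratio of Rrm1 to Rrm2 per kilobase, in which the scaling of a library cancels, was 7.80 to 9.57 in BAT_cold and 1.72 to 2.81 in BAT, against 0.886 to 1.90 in WAT_cold (0.886 to 1.25 without WAT_cold_1) and 0.813 to 0.952 in WAT. The BAT_cold libraries thus lay above all others in this ratio. Its size, though not its order among libraries, rests on the exon lengths used (11012 bases for Rrm1 and 2771 for Rrm2). Rrm1 was the only gene of the 40 called higher in BAT_cold under library totals as well.

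Thymidylate synthase (Tyms), which makes dTMP, was at 8.67 to 9.08 CPM in BAT_cold and 6.51 to 7.0 CPM in BAT (log2 0.41 ± 0.09, adjusted p = 0.00229), although under library totals its log2 value was 0.04 (adjusted p = 0.746). Thymidine kinase 1 (Tk1), the salvage enzyme for the same nucleotide, was at 2.07 to 2.90 CPM in BAT_cold and 4.04 to 4.68 CPM in BAT (-0.83 ± 0.15, adjusted p = 0.000969). Both pairs of groups were separate. Pcna was at 32.3 to 36.2 CPM in BAT_cold and 41.8 to 55.3 CPM in BAT (-0.52 ± 0.09, adjusted p = 0.000669). After these values had been seen, 4 further genes of nucleotide supply were looked up: Rrm2b, the small subunit used outside S phase, averaged 39.9 CPM in BAT_cold and 43.3 CPM in BAT (-0.12, adjusted p = 0.0718). Tk2 and Dguok, mitochondrial salvage kinases, had log2 values of 0.11 (adjusted p = 0.186) and -0.07 (adjusted p = 0.412). Samhd1, which breaks deoxynucleotides down, averaged 48.6 CPM in BAT_cold and 81.0 CPM in BAT and was lower (-0.74, adjusted p = 0.000675).

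**Figure D2:**
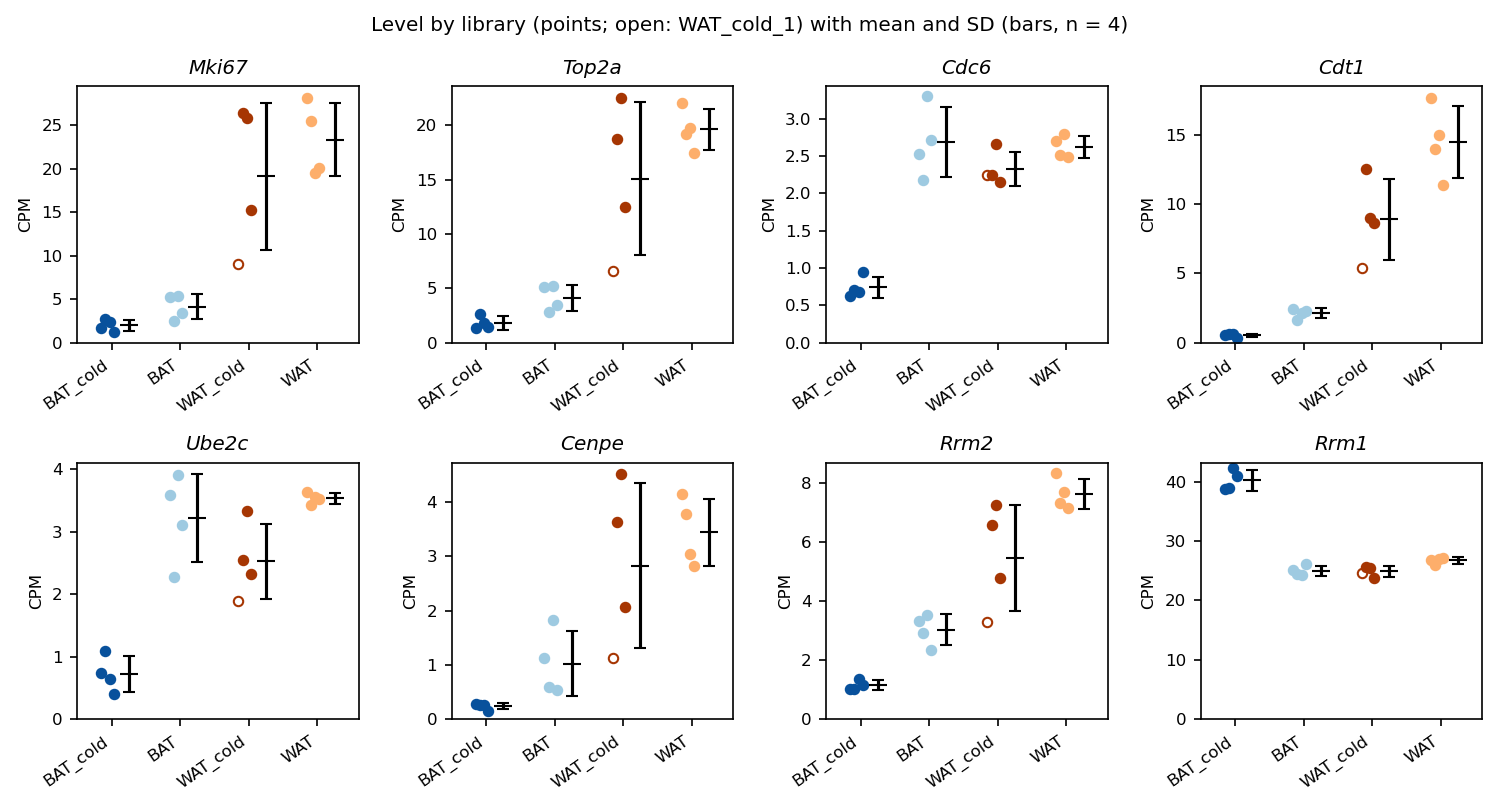
CPM of Mki67, Top2a, Cdc6, Cdt1, Ube2c, Cenpe, Rrm2 and Rrm1 in each library, with the group mean and SD (n = 4), in BAT_cold, BAT, WAT_cold and WAT; the open point is WAT_cold_1. Rrm1 is at 38.7 to 42.3 CPM in BAT_cold and at or below 27.1 CPM in the other groups, while the other 7 genes have their lowest group means in BAT_cold.

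Of the kinases and cyclins of mitotic entry, 3 of 5 were lower and 1 was higher. Cdk1 was at 0.283, 0.708, 0.683 and 0.346 CPM in BAT_cold, against 1.73, 0.758, 2.13 and 1.43 CPM in BAT (-1.57 ± 0.40, adjusted p = 0.00686). Its partner cyclin B2 (Ccnb2) changed by -1.18 ± 0.37 (adjusted p = 0.0205), a call that held in 4 of 8 fits that left out a library. Cyclin B1 (Ccnb1) was at 0.420 to 1.01 CPM in BAT_cold and 0.674 to 1.58 CPM in BAT, overlapped and did not pass (-0.49, adjusted p = 0.302). Of its 50-base exon windows 23.4% also occur in transcripts of other genes, the pseudogene Ccnb1-ps sharing the most. Plk1, the kinase that matures the spindle poles, was at 0.198 to 0.613 CPM in BAT_cold and 1.05 to 1.68 CPM in BAT, without overlap (-1.45 ± 0.33, adjusted p = 0.00406). Aurora A (Aurka), another spindle pole kinase, ran against them: it was at 2.26, 3.06, 3.06 and 2.89 CPM in BAT_cold, against 1.90, 1.61, 1.96 and 1.85 CPM in BAT, with no overlap (0.62 ± 0.16, adjusted p = 0.0087). Under library totals Aurka was at 0.24 (adjusted p = 0.244).

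The chromosomal passenger complex corrects the attachment of chromosomes to the spindle. Its targeting subunits survivin (Birc5) and borealin (Cdca8) were lower. Birc5 changed by -1.11 ± 0.38 (adjusted p = 0.0302) and Cdca8 by -1.19 ± 0.36 (adjusted p = 0.0167). Its kinase, Aurora B (Aurkb), was at 0.321 to 0.593 CPM in BAT_cold and 0.333 to 1.17 CPM in BAT and did not pass (-0.58, adjusted p = 0.246). BAT replicate 3 held 1.76 CPM of Birc5 and 2.37 CPM of Cdca8, above every other brown fat library. Without it neither was called. The highest adjusted p over the fits that left out a library was 0.109 for Birc5 and 0.0511 for Cdca8.

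At the centromere and kinetochore 2 of 5 genes were lower. Cenpe, the motor that carries chromosomes to the spindle equator, was at 0.283, 0.251, 0.259 and 0.148 CPM in BAT_cold, against 1.13, 0.592, 1.82 and 0.543 CPM in BAT. It was 4.31-fold lower with no overlap (log2 -2.11 ± 0.45, adjusted p = 0.0027). Bub1b, the checkpoint protein BubR1, changed by -0.84 ± 0.29 (adjusted p = 0.0308), a call that held in 4 of 8 fits that left out a library. The histone variant of the centromere, Cenpa, had a log2 value of -0.38 (adjusted p = 0.0654), Cenpf -0.18 (adjusted p = 0.678) and the checkpoint kinase Bub1 -0.38 (adjusted p = 0.643).

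Of the spindle and cytokinesis genes only Nusap1, a protein that bundles spindle microtubules, was called: it was at 1.19 to 2.14 CPM in BAT_cold and 1.96 to 3.36 CPM in BAT (-0.90 ± 0.24, adjusted p = 0.00967). The motors Kif11, which pushes the spindle poles apart, and Kif23, of the midzone, had log2 values of -0.74 (adjusted p = 0.106) and -0.69 (adjusted p = 0.1). Kif20a, another midzone motor, had 0.25 (adjusted p = 0.497) and shares 29.3% of its exon bases with Cdc23 on the opposite strand, which held 40965 counts over the 16 libraries, against 2692 for Kif20a. The anaphase promoting complex marks cyclins for destruction at the end of mitosis. Its enzyme Ube2c was at 0.736, 1.10, 0.636 and 0.395 CPM in BAT_cold, against 3.6, 2.27, 3.91 and 3.11 CPM in BAT. That is a 4.48-fold lower level without overlap (log2 -2.16 ± 0.31, adjusted p = 0.000217), the furthest from 0 of the 40. It shares 22.8% of its exon bases with Tnnc2 on the opposite strand, which held 26 counts over all 16 libraries. Its activator Cdc20 was at 0.840 to 1.01 CPM in BAT_cold and 0.739 to 1.5 CPM in BAT and did not pass (-0.35, adjusted p = 0.263).

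Set beside the promoters printed above, all 8 genes with an E2F-like site were among the 22 lower genes with a promoter (36.4%), and none was among the 4 higher or the 8 that did not pass. The CCAAT box was in 17 of the 22 lower genes, 2 of the 4 higher and 7 of the 8 that did not pass. The CHR core was in 14 of the 22 lower genes, 1 of the 4 higher and 7 of the 8 that did not pass. The windows of E2f1 and Tyms, both higher, held none of the 3, and neither did that of Nusap1. That of E2f1 reads as protein-coding sequence of the gene, so it does not show whether the E2f1 promoter holds such sites. The higher genes number only 4, E2f1 among them, so the lack of E2F-like sites there cannot show a split by direction. These counts describe letters in short windows of a few genes and were not tested.

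**Figure D3:**
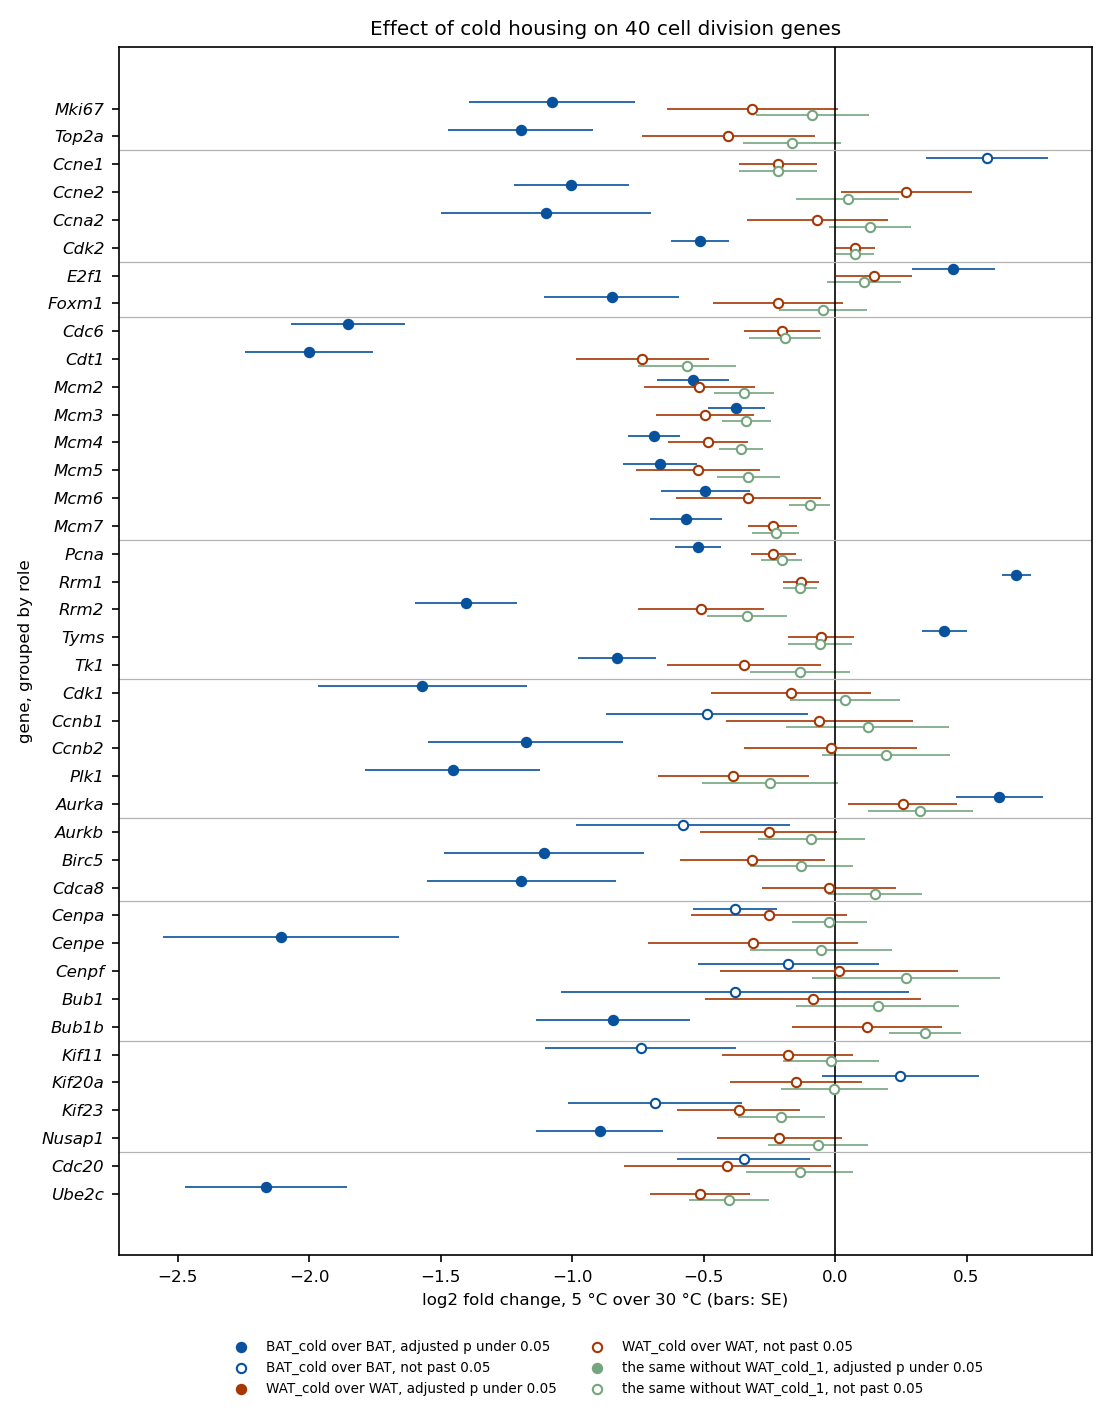
Log2 fold change of each of the 40 genes with its standard error for BAT_cold over BAT, WAT_cold over WAT, and WAT_cold over WAT without WAT_cold_1; filled points passed an adjusted p of 0.05. Ube2c (-2.16), Cenpe (-2.11) and Cdt1 (-2.0) lie furthest below 0 in brown fat, Rrm1 (0.69) furthest above it, and no white fat point is filled.

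The 26 lower genes were not equally secure. Of them, 18 stayed called in all 8 fits that left out a library, as did 3 of the 4 higher genes (Rrm1, Tyms and Aurka). The calls of Mki67, Cdca8, Foxm1, Birc5, Bub1b, Ccna2, Ccnb2, Mcm6 and E2f1 were each lost in at least one such fit. With only the 4 libraries whose labels all match, 2 a group, 9 genes were called, 1 higher and 8 lower, with no share of all genes given for that fit. Grouped by the source label instead of the title and housing label, none of the 40 and none of all genes tested was called by edgeR.

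Markers of several cell types moved alongside these genes. All 6 white adipocyte markers were lower, with sums of 66.5 to 158 CPM in BAT_cold and 797 to 1210 CPM in BAT. Of 7 general adipocyte markers 4 were higher and 1 lower, with sums of 19820 to 21513 CPM in BAT_cold and 15985 to 19717 CPM in BAT. Skeletal muscle markers, 0 of 7 called, varied within each group, from 1.58 to 1878 CPM in BAT_cold and from 1.88 to 1191 CPM in BAT. Of 9 T and NK cell markers, 8 were lower in BAT_cold (median log2 -1.76), and their summed level was 2.55 to 5.82 CPM in BAT_cold and 8.39 to 11.9 CPM in BAT. B cell markers, 0 of 7 tested called, summed to 2.91 to 10.2 CPM in BAT_cold and 6.32 to 7.4 CPM in BAT. Macrophage markers, 0 of 7 called, summed to 178 to 264 CPM in BAT_cold and 205 to 266 CPM in BAT. Of 8 preadipocyte and fibroblast markers, 1 was higher and 3 lower, with sums of 499 to 672 CPM in BAT_cold and 658 to 731 CPM in BAT. Endothelial markers, 3 higher and 2 lower of 6, summed to 1252 to 1318 CPM in BAT_cold and 1214 to 1463 CPM in BAT. Mammary epithelium markers, 0 of 6 tested called, summed to 0.226 to 38.1 CPM in BAT_cold and 0.223 to 15 CPM in BAT, and the milk protein gene Wap was at 0 in all 4 BAT_cold libraries. Erythroid precursor markers, 1 of 5 tested lower, summed to 221 to 356 CPM in BAT_cold and 430 to 642 CPM in BAT. The transferrin receptor Tfrc carried that difference, at 48.1 to 83.3 CPM in BAT_cold and 286 to 434 CPM in BAT, whereas the haem and globin genes Alas2, Hba-a1 and Hbb-bs had log2 values of 0.15 to 0.21 and were not called. The part of these cells in the fall of the division genes was not tested.

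**Figure D4:**
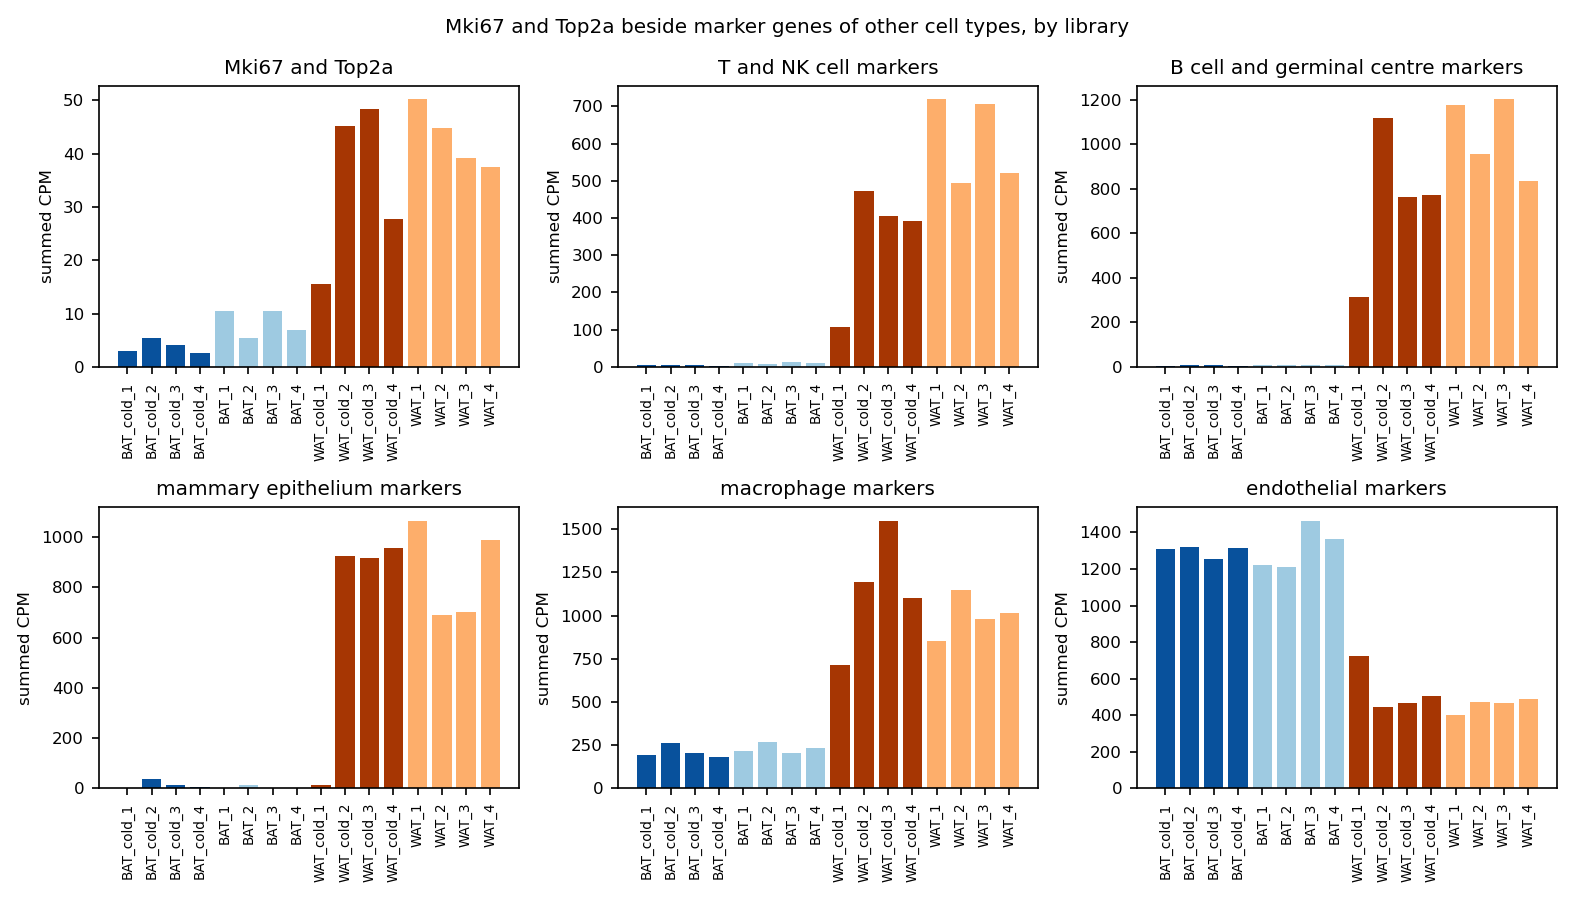
Summed CPM in each library of Mki67 with Top2a and of the marker lists of T and NK cells, B cells, mammary epithelium, macrophages and endothelial cells, as bars. T and NK cell markers are at 2.55 to 5.82 CPM in BAT_cold and 8.39 to 11.9 CPM in BAT but at 106 to 472 CPM in WAT_cold and 494 to 719 CPM in WAT, and WAT_cold_1 has the lowest bar of its group for T and NK cells, B cells and mammary epithelium.

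Other genes of the cell cycle, 127 in lists that hold none of the 40, gave 55 lower and 19 higher of 119 tested in brown fat, with a median log2 fold change of -0.44. That is 62.2% called, close to the 59.5% of all genes, with 46.2% lower against 30.3% of all genes. Replication factors were mostly lower, 22 of 36 against 6 higher (77.8% called). Uhrf1, which copies DNA methylation behind the fork, was at 1.26 to 2.00 CPM in BAT_cold and 8.34 to 10.9 CPM in BAT (-2.5). Pola2, the accessory subunit of DNA polymerase alpha, was at 8.41 to 10.4 CPM in BAT_cold and 24.9 to 27.0 CPM in BAT (-1.49). Cdc45, which completes the active helicase with the MCM ring, ran the other way with 8.06 to 10.1 CPM in BAT_cold and 4.98 to 5.72 CPM in BAT (0.77). Other mitotic genes gave 19 lower and 3 higher of 46 (47.8% called), with falls of Espl1, the separase (-1.68), and Kif18a, a spindle motor (-1.35). Of the genes that restrain or time the cycle, the inhibitor of Cdk4 and Cdk6 Cdkn2c was at 45.7 to 67.5 CPM in BAT_cold and 135 to 226 CPM in BAT (-1.68). Cdkn1a, the p21 inhibitor that p53 induces, was lower as well (-0.63). In the Rb and E2F list, 6 of 17 rose and 4 fell (58.8% called). E2f2 was at 38.3 to 55.4 CPM in BAT_cold and 8.24 to 15.7 CPM in BAT (1.92) and Tfdp1, the partner that E2F factors need, rose by 0.99, while Rbl1 (-1.61), Mybl2 (-1.67) and the repressor E2f8 (-1.53) fell. The D cyclins were divided, Ccnd1 rising (0.66) and Ccnd2 falling (-0.78). Of 9 genes of the p53 pathway, 1 rose (Ccng1, 0.65) and 4 fell, among them Trp53 itself (-0.82) and Btg2 (-1.42), 55.6% called in all.

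In white fat the same move to 5 °C gave no called gene among the 40, either with all 4 WAT_cold libraries or without WAT_cold_1. Few genes of any kind passed there: 0.0632% of those tested with all libraries and 2.11% without WAT_cold_1, 1.84% as higher and 0.274% as lower. The median log2 fold change of the 40, WAT_cold over WAT, was -0.23, against -0.01 over all genes, and without WAT_cold_1 it was -0.09, against -0.02. At an unadjusted p under 0.05 there were 7 genes, all lower, with all libraries, which is 17.5% of the 40 against 18.1% of all genes, and 9 genes, 8 lower and 1 higher, without WAT_cold_1, which is 22.5% against 23.2%. The 40 genes thus reached that level no more often than genes at large. By DESeq2 the count was 0 with all libraries and 3, all lower, without WAT_cold_1. By limma-voom it was 5 and 4, all lower. Shares of all genes called by these 2 methods are not given here.

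The 7 genes were Cdt1, Mcm2, Mcm3, Mcm4, Mcm7, Pcna and Ube2c, and their adjusted p-values were 0.208 to 0.265. Cdt1 was at 5.43, 12.6, 8.98 and 8.64 CPM in WAT_cold, WAT_cold_1 first, against 17.7, 14.0, 15 and 11.4 CPM in WAT (log2 -0.73 ± 0.25, adjusted p = 0.225; -0.56 ± 0.19, adjusted p = 0.131 without WAT_cold_1). Mcm4 was at 15.8, 25.6, 24.5 and 22.6 CPM in WAT_cold, against 32.8, 28.1, 31.6 and 28.9 CPM in WAT. All 4 of its WAT_cold values lay below all 4 WAT values (-0.48 ± 0.15, adjusted p = 0.208; -0.36 ± 0.08, adjusted p = 0.068 without WAT_cold_1). Over the 40 genes such a separation was seen for 4, all lower, with all libraries, and for 4 lower and 1 higher without WAT_cold_1. In either direction 13.7% and 19.0% of all genes showed it. By direction that was 1562 higher and 1029 lower of 18975 genes with all libraries. Without WAT_cold_1 it was 2308 higher and 1363 lower of 19320. Mki67 was at 9.01, 26.4, 25.8 and 15.3 CPM in WAT_cold and at 28.2, 25.6, 19.5 and 20.1 CPM in WAT. Its log2 value of -0.31 ± 0.33 became -0.09 ± 0.22 without WAT_cold_1, with adjusted p-values of 0.599 and 0.845. Ube2c, the gene furthest down in brown fat, was at 1.89, 2.55, 3.34 and 2.32 CPM in WAT_cold and 3.43 to 3.63 CPM in WAT (-0.51 ± 0.19, adjusted p = 0.241; -0.40 ± 0.15, adjusted p = 0.166 without WAT_cold_1).

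WAT_cold_1 was the lowest WAT_cold library for 31 of the 40 genes. Its summed level was 291 CPM, against 390 to 470 CPM in the other 3. It also had the lowest sum of T and NK cell markers (106 CPM, against 392 to 472 CPM in the other 3) and of B cell markers (312 CPM, against 765 to 1117 CPM). Its adipocyte markers, 23414 CPM against 5833 to 8750 CPM, and its skeletal muscle markers, 5544 CPM against 8.01 to 187 CPM, were the highest of the group. The part of any of these cells in its low values was not tested. In WAT, T and NK cell markers summed to 494 to 719 CPM and B cell markers to 835 to 1202 CPM. Of the other 127 cell cycle genes none was called with all WAT libraries (14 at an unadjusted p under 0.05, 1 higher and 13 lower), and 1 without WAT_cold_1, the replication protein Rpa2 (-0.44 ± 0.08, adjusted p = 0.0457).

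The cold effects of the tissues were tested against each other, as the cold effect in WAT minus the cold effect in BAT. Of the 40 genes 8 were called, 6 with a higher and 2 with a lower value in white fat, against 20.8% of all genes, 12.5% higher and 8.34% lower. The share among the 40 is thus close to that of all genes. Cdc6 (1.68 ± 0.25, adjusted p = 0.000293), Ube2c (1.68 ± 0.37, adjusted p = 0.00531), Cdt1 (1.29 ± 0.35, adjusted p = 0.0154), Ccne2 (1.30 ± 0.34, adjusted p = 0.014), Cdk2 (0.62 ± 0.14, adjusted p = 0.00474) and Rrm2 (0.93 ± 0.31, adjusted p = 0.0449) were those with the higher value. All 6 were lower in BAT_cold than in BAT. Rrm1 (-0.79 ± 0.08, adjusted p = 1.03e-05) and Tyms (-0.44 ± 0.14, adjusted p = 0.0437) had the lower value. The calls of Rrm2 and Tyms held in 3 of 16 fits that left out a library, and those of the other 6 in 16 of 16. For the 6 MCM subunits the difference between tissues was -0.09 to 0.36 and none passed.

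Without WAT_cold_1 the count was 17, 14 higher and 3 lower, against 31.3% of all genes, 15.6% higher and 15.7% lower. The added genes were Top2a (1.02), Tk1 (0.68), Cdk1 (1.60), Ccnb2 (1.36), Plk1 (1.20), Cdca8 (1.34), Cenpe (2.05) and Bub1b (1.18) with a higher value and Ccne1 (-0.81) with a lower one. The count was 10 when WAT_cold replicate 2 or 3 was left out as well. Under library totals it was 24, 23 higher and 1 lower, with no share of all genes given for that setting. Of the other 127 cell cycle genes, 21 had a higher and 9 a lower value with all libraries, Uhrf1 (2.09), Cdkn2c (1.71) and Pola2 (1.27) among the higher and E2f2 (-2.33) among the lower, which is 23.6% called against 20.8% of all genes. Without WAT_cold_1 there were 26 higher and 15 lower (32.3%, against 31.3%).

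At 30 °C 31 of the 40 genes were lower in BAT than in WAT, none was higher and 9 did not pass, with a median log2 fold change, BAT over WAT, of -1.39 against -0.03 over all genes. Of all genes 69.8% were called, 34.5% higher and 35.3% lower. Mki67 averaged 4.15 ± 1.41 CPM in BAT and 23.3 ± 4.20 CPM in WAT (SD, n = 4 each; log2 -2.49 ± 0.35, adjusted p = 1.78e-05). Cdt1 averaged 2.12 ± 0.346 CPM in BAT and 14.5 ± 2.60 CPM in WAT (-2.77 ± 0.25, adjusted p = 2.08e-07). Aurkb (-2.35), Bub1 (-2.27) and Top2a (-2.25) followed. All 30 genes whose libraries did not overlap were lower in BAT. Of all 19481 genes tested, 66.9% were separate in either direction, 6430 higher and 6612 lower in BAT. The MCM subunits ranged from -2.14 (Mcm6) to -0.52 (Mcm7).

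The 9 genes that did not pass at 30 °C included Cdc6 and Ube2c. Cdc6 averaged 2.68 ± 0.468 CPM in BAT and 2.62 ± 0.150 CPM in WAT (0.03 ± 0.17, adjusted p = 0.873). Ube2c averaged 3.22 ± 0.712 CPM in BAT and 3.54 ± 0.0850 CPM in WAT (-0.13 ± 0.26, adjusted p = 0.652). Ccne2 (0.03), Cdk2 (0.06), Pcna (-0.09), Rrm1 (-0.10) and Tyms (-0.12) were also near 0, with standard errors of at most 0.24, and Cenpa (-0.46, adjusted p = 0.113) and Bub1b (-0.60, adjusted p = 0.094) were lower without passing. Under library totals all 40 were called lower in BAT, with a median of -2.24 against -0.88 over all genes. That setting placed genes at large lower in BAT, and the share of all genes it called is not given here. T and NK cell markers, 9 of 9 lower in BAT, summed to 8.39 to 11.9 CPM in BAT and 494 to 719 CPM in WAT. B cell markers, 8 of 8 lower, summed to 6.32 to 7.4 CPM in BAT and 835 to 1202 CPM in WAT. Macrophage markers, 7 of 7 lower, summed to 205 to 266 CPM in BAT and 852 to 1147 CPM in WAT. Mammary epithelium markers, 9 of 9 lower, summed to 0.223 to 15 CPM in BAT and 691 to 1065 CPM in WAT. Endothelial markers were higher in BAT, 6 of 6, at 1214 to 1463 CPM in BAT and 400 to 486 CPM in WAT. The part of these cells in the tissue difference was not tested.

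**Figure D5:**
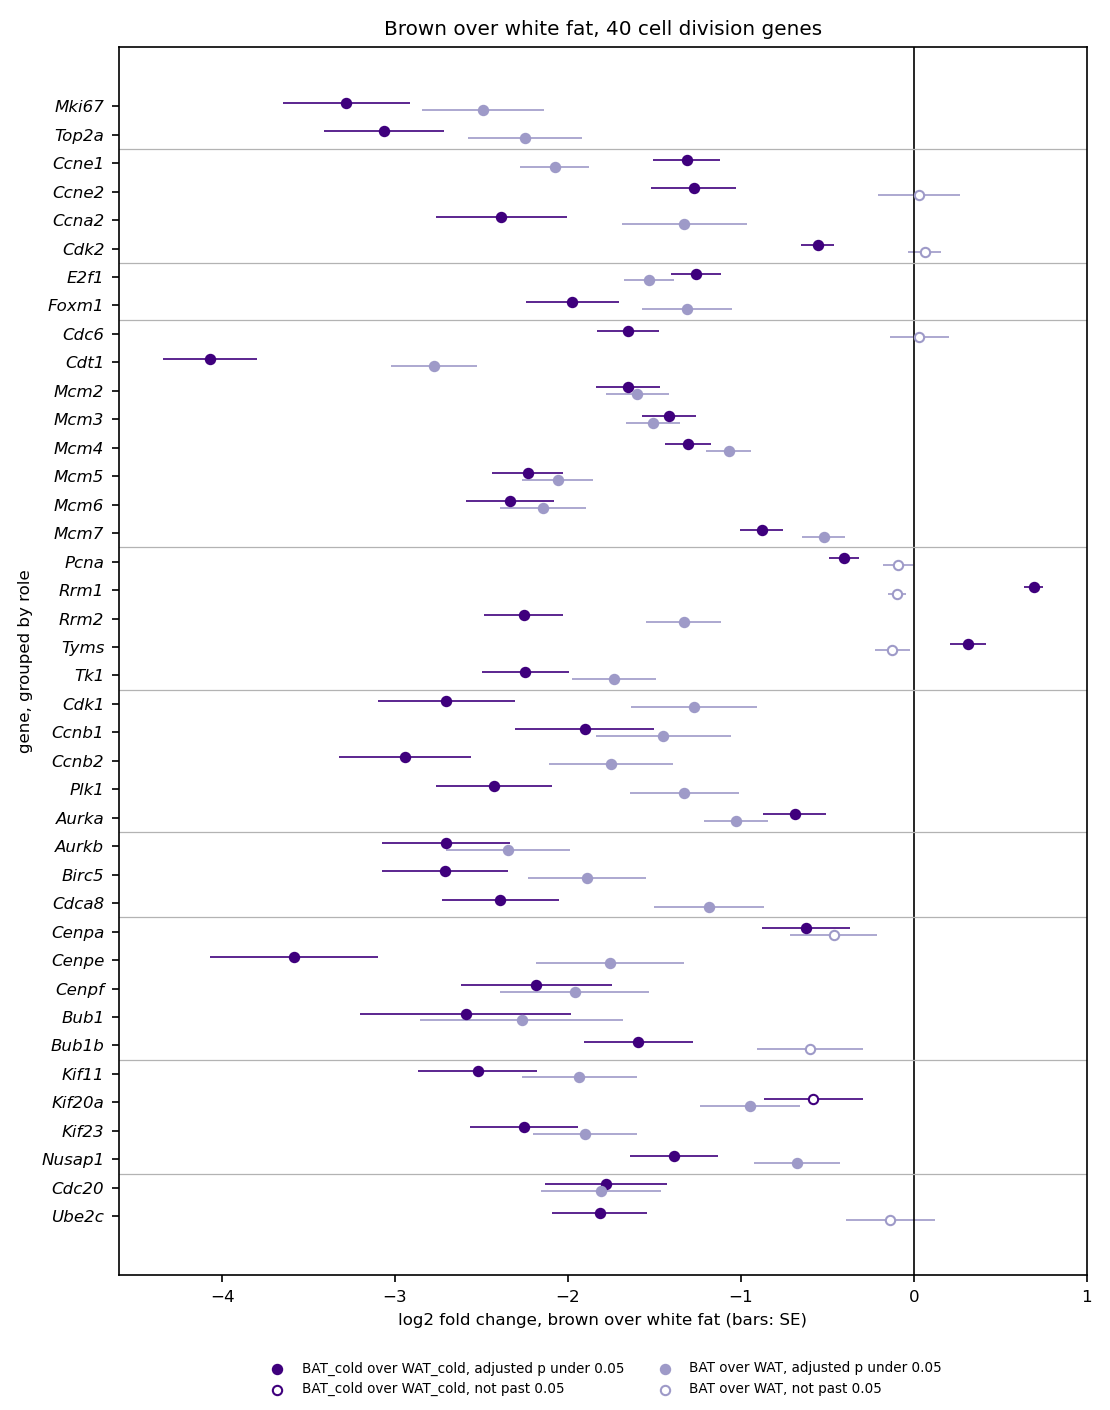
Log2 fold change of each of the 40 genes with its standard error for BAT_cold over WAT_cold and for BAT over WAT; filled points passed an adjusted p of 0.05. At 30 °C Cdc6 (0.03), Cdk2 (0.06) and Ube2c (-0.13) lie near 0, whereas at 5 °C they are at -1.65, -0.55 and -1.82, and Rrm1 (0.69) and Tyms (0.31) are the points above 0.

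At 5 °C 37 genes were lower and 2 higher in BAT_cold than in WAT_cold, with a median of -1.94 against -0.19 over all genes, and 72.4% of all genes were called, 31.8% higher and 40.5% lower. This comparison shares its BAT_cold libraries with the cold comparison in brown fat and is not independent of it. Cdt1 averaged 0.528 ± 0.127 CPM in BAT_cold and 8.90 ± 2.92 CPM in WAT_cold (-4.07 ± 0.27, adjusted p = 1.57e-08; -4.26 ± 0.23 without WAT_cold_1). Cenpe was at -3.58 ± 0.49 (adjusted p = 1.07e-05) and Mki67 at -3.28 ± 0.37 (adjusted p = 1.73e-06), and without WAT_cold_1 they were at -3.87 ± 0.43 and -3.53 ± 0.31. Rrm1 averaged 40.3 ± 1.73 CPM in BAT_cold and 24.9 ± 0.897 CPM in WAT_cold (0.69 ± 0.05, adjusted p = 5.18e-08), and Tyms 8.88 ± 0.216 CPM in BAT_cold and 7.14 ± 0.434 CPM in WAT_cold (0.31 ± 0.10, adjusted p = 0.0123). Without WAT_cold_1 their values were 0.67 ± 0.06 (adjusted p = 3.25e-08) and 0.30 ± 0.11 (adjusted p = 0.0193). Both were lower in BAT_cold under library totals, by log2 values of -0.25 and -0.62, where the median of all genes was -1.12. Kif20a did not pass (-0.58, adjusted p = 0.0823). All 9 T and NK cell, 8 B cell, 7 macrophage and 9 mammary epithelium markers tested were lower in BAT_cold as well, with or without WAT_cold_1, and their part in the result was not tested. Without WAT_cold_1 all 40 were called, 38 lower and 2 higher, with a median of -2.14, and 76.2% of all genes were called, 34% higher and 42.2% lower.

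Among regulators of these genes, Gmnn, geminin, which binds Cdt1 and keeps origins from firing again, averaged 30.7 ± 2.69 CPM in BAT_cold, 22.6 ± 1.76 CPM in BAT, 4.69 ± 1.27 CPM in WAT_cold (4.78 without WAT_cold_1) and 4.36 ± 0.368 CPM in WAT, and was higher in BAT than in WAT (2.37). Cdt1 itself thus had the reverse order of group means. Pttg1, securin, which holds separase inactive, averaged 84.8 ± 6.96 CPM in BAT and 22.6 ± 2.01 CPM in WAT (1.91). Cdkn1a averaged 155 ± 47.8 CPM in BAT and 24.6 ± 3.81 CPM in WAT (2.66). The 8 CDK inhibitors as a list had 3 higher and 4 lower in BAT than in WAT. Over the whole list of other mitotic genes, 38 of 51 were lower in BAT than in WAT and 4 higher at 30 °C, which is 82.4% called and 74.5% lower, against 69.8% and 35.3% of all genes. In BAT_cold 40 were lower and 3 higher than in WAT_cold (42 and 3 without WAT_cold_1), which is 84.3% called against 72.4% of all genes.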

How the data were processed

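The authors deposited 1 table of raw counts per Ensembl gene identifier for the 16 libraries, 46078 identifiers of which 45143 matched a gene symbol and 935 did not. Trim Galore and TopHat are named without versions, per the submitters' processing notes. Genome build, annotation, counter and strand setting: not given in the sources used here. Groups came from the titles and housing labels.

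Counts were scaled by TMM (trimmed mean of M-values), cleared of low genes by filterByExpr (count of at least 10, total of at least 15) and tested with edgeR 4.0.16 under R 4.3.3 (quasi-likelihood F-test), with Benjamini-Hochberg adjustment over all genes tested and a threshold of 0.05. The TMM factors ran from 0.624 to 0.664 in BAT_cold, 0.806 to 0.879 in BAT, 0.937 to 1.45 in WAT_cold and 1.46 to 1.57 in WAT, so scaling bears on every small fold change. Each tissue was fitted apart for the cold effect. The tissue differences, and the difference between the cold effects, came from a single fit of all libraries. CPM use TMM-adjusted library sizes. Standard errors were taken as |log2 fold change| divided by the root of F. Levels per kilobase use GENCODE M21 exon lengths, and shared exon bases and windows come from the same annotation.

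The 40 genes, the other cell cycle lists, the marker lists and the tests were chosen with earlier results of these data known. For each comparison, the genes of every role are given with values, and the other lists by counts with up to 3 called genes in each direction. Libraries of a group differed by more than sampling noise in all 24 pairs (lowest chi-square per degree of freedom 19.9). The tests were checked on simulated brown fat counts in which few genes changed, in balanced directions. That check does not reach the question of scaling where most genes move. Alternatives were RLE size factors, library totals, no filter, DESeq2 1.42.0, limma-voom (limma 3.58.1), a replicate block, a single fit of both tissues, the other temperature labels and each library left out.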

Additional observations from a re-analysis of the deposited data

Results flagged for a closer look

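In 5 of 160 combinations of a gene and a group, 1 library lay far from the other 3 of its group by Dixon's test (gap to the nearest library over the range of the group, 95% critical value). Chance alone flags about 1 in 20. BAT replicate 3 held 1.76 CPM of Birc5, against 0.761 to 0.795 CPM in the other BAT libraries. BAT replicate 1 held 2.53 CPM of Kif20a, against 1.15 to 1.35 CPM. BAT replicate 2 held 1.96 CPM of Nusap1, against 3.28 to 3.36 CPM. BAT replicate 4 held 7.0 CPM of Tyms, against 6.51 to 6.58 CPM. WAT replicate 1 held 7.63 CPM of Kif11, against 5.23 to 5.36 CPM in the other WAT libraries.

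The cold effect in WAT minus that in BAT passed edgeR's test for 8 genes. On the log2 scale it was 1.68 for Cdc6, 1.68 for Ube2c, 1.30 for Ccne2, 1.29 for Cdt1, 0.93 for Rrm2 and 0.62 for Cdk2, and it was -0.79 for Rrm1 and -0.44 for Tyms.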

How the results depend on the processing

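Over all alternative settings 3423 values of called genes were recomputed: 3209 kept their direction and their side of the threshold, 192 kept the direction but lost the threshold and 22 reversed. Some of these fits left out a library of neither group compared, which bears on a tissue difference only through the shared fit. The total, and the ranges for the tissue differences below, therefore overstate how firm the calls are. The count for BAT_cold over BAT (30) was 9 with the 4 libraries whose labels all match and 0 with the source label's groups. Under those groups the log2 values, none called, were 0.013 for Mki67, 0.051 for Ccna2, 0.10 for Cdk2, 0.29 for Foxm1, 0.34 for Cdc6, 0.034 for Cdt1, 0.084 for Mcm7, 0.13 for Pcna, 0.022 for Rrm2, 0.39 for Cdk1, 0.46 for Ccnb2, 0.37 for Plk1, 0.44 for Birc5, 0.67 for Cdca8, 0.30 for Cenpe, 0.31 for Bub1b, 0.35 for Nusap1 and 0.063 for Ube2c. Library totals reversed Rrm1 (-0.25) and Tyms (-0.62) in BAT_cold over WAT_cold, and -0.37 and -0.74 without WAT_cold_1. They moved the mean summed level to 125 CPM in BAT_cold, 209 in BAT, 514 in WAT_cold and 725 in WAT, against 193, 249, 404 and 479 CPM by TMM. For WAT_cold over WAT (0), limma-voom gave 5 and a single fit of both tissues 1. Without WAT_cold_1 (0), DESeq2 gave 3, limma-voom 4 and the single fit 1. For the difference between cold effects (8), limma-voom gave 13. The cause of these changes was not tested. Counts under these settings show how the calls of the 40 genes depend on the setting, not how they compare with all genes. Leaving out 1 library gave 23 to 30 for BAT_cold over BAT, 0 to 0 for WAT_cold over WAT, 6 to 17 for the difference between cold effects (10 to 18 without WAT_cold_1), 30 to 34 for BAT over WAT and 38 to 40 for BAT_cold over WAT_cold. Equal replicate numbers did not pair the libraries (correlation of residuals -0.531 to 0.275, 4 of 24 over 0.1). With the replicate block, BAT_cold over BAT gave 30, WAT_cold over WAT 0, and the difference between cold effects 6 (18 without WAT_cold_1). Low counts limit Cenpe, Bub1 and Ccnb2 most, and also Plk1, Aurkb, Birc5, Cdk1, Cdt1 and Cenpf, which held 76 to 90 counts each over the BAT_cold libraries.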
